A study of Mus musculus with 4 samples.

Results

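The loci of Creb5 and Arid5b, 2 transcription factor genes of 21887 protein-coding genes examined, were described through the Isl1 binding peaks in and around them. The members were chosen by measured values: both genes had been picked because many Isl1 peaks lay there, so their counts and scores are descriptions, with no test. A peak belonged to a locus if its midpoint lay in the gene or within 500 kb of it (mm10), and 2 peaks from different replicates counted as shared if they had at least 1 bp in common. The Creb5 window held 30 peaks of replicate 1 and 35 of replicate 2, which formed 25 shared regions. The Arid5b window held 23 and 32 peaks, which formed 21 shared regions. Together these were 53 of 8860 peaks of replicate 1, 67 of 10162 peaks of replicate 2 and 46 of 6834 shared regions in the series.

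All chromatin was prepared from the genital tubercle of E14.5 (embryonic day) mouse embryos, wild type and of the CD1 strain. The series held 2 samples precipitated with a rabbit monoclonal antibody against ISL1 and 2 input DNA samples taken without antibody. Each Isl1 sample had 1 list of peaks, each with the authors' whole-number score, and the input samples were not analysed here. The tubercle was used whole, so a score cannot tell binding in few cells from weak binding in many, and peak lists hold no expression values with which to check the cell types.

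The penis and the clitoris both develop from the genital tubercle. Its mesenchyme expresses Isl1, which encodes a transcription factor of the LIM-homeodomain class. Homeodomains commonly recognise DNA with a TAAT core. CREB5 is a basic leucine zipper protein of the same subfamily as ATF2 and ATF7, which binds the cyclic AMP response element (CRE) and can pair with JUN, and in mouse joints it is known as a regulator of Prg4, the lubricin gene of articular cartilage. ARID5B binds AT-rich DNA through its AT-rich interaction domain and recruits the histone demethylase PHF2. Mice without Arid5b (also named Desrt and Mrf2) are known for poor growth and abnormal reproductive organs.

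The start sites were examined first, because the strongest region of either locus lay at one of them. The RefSeq promoter table (GRCm38.p6, the assembly behind mm10) gives 2 start sites for Creb5, on the plus strand, and 1 for Arid5b, on the minus strand. Each window below runs along the direction of transcription from 250 bases before the start site to 50 after it, and is sequence of the reference strain, not of CD1. The windows lie at chr6:53287053-53287352, chr6:53573124-53573423 and chr10:68278677-68278976. Capitals mark every match to TAAT, to the full CRE TGACGTCA and to AATATT or AATACT, AT-rich words of the kind ARID5B binds, on either strand.
Creb5, first start site: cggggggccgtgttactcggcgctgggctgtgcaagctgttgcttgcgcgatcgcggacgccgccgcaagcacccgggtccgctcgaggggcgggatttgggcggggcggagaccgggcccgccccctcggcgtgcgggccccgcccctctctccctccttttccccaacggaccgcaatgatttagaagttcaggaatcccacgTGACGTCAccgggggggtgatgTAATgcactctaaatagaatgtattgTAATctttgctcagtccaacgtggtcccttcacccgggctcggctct
Creb5, second start site: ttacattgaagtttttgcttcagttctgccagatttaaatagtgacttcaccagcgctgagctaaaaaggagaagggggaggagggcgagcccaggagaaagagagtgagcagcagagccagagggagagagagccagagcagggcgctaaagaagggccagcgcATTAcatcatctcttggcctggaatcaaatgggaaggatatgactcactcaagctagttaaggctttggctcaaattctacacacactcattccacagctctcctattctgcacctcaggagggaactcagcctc
Arid5b: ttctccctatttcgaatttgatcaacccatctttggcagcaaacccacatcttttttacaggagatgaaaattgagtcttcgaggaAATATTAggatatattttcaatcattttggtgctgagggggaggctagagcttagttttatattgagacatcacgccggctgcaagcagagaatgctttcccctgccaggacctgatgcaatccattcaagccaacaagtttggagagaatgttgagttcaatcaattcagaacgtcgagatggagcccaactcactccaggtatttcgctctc

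The Arid5b start site lay under the highest-scoring region of either locus, at chr10:68278709-68279279. Its score was 621 in replicate 1 and 506 in replicate 2. By the lower of its 2 scores it had rank 309 of the 6834 shared regions, and it was the 1 region of both loci in the top 10%. The replicate 1 peak ran from position -520 to 17 and the replicate 2 peak from -553 to 16, with the start site at 0. They covered 268 and 267 of the 300 bases. The annotated span of Arid5b begins farther upstream, at chr10:68279355, so the whole region lies inside that span. Over all genes, 923 of 32851 promoter windows (2.81%) touched a shared region.

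Neither start site of Creb5 had a shared region. At the second, replicate 2 alone had a peak with a score of 44, which ran from position -212 to -57 (chr6:53573162-53573317). At the first, neither replicate had a peak within 5 kb. The nearest shared region lay 28.0 kb from the first start site, with scores of 52 in replicate 1 and 82 in replicate 2. The Creb5 locus was thus marked within and beside the gene, and the Arid5b locus also at its start.

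**Figure D1:**
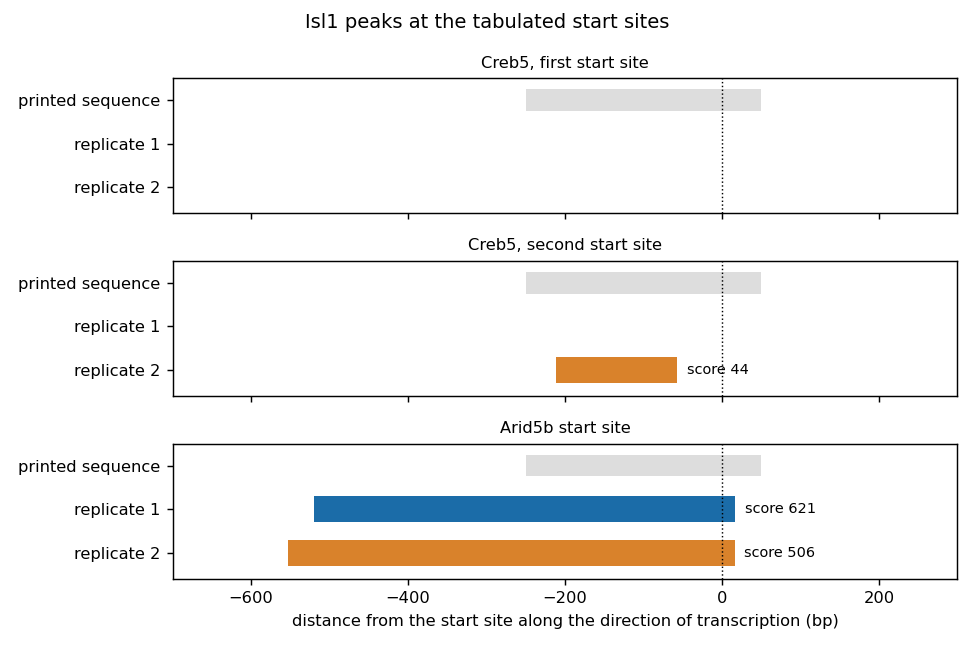
Isl1 peaks (bars, replicates 1 and 2) at the 3 tabulated start sites of Creb5 and Arid5b, by distance from the start site in bp, with the authors' scores beside the bars. Grey bars are the 300-base windows whose sequences are printed. Both replicates cover the Arid5b start site (scores 621 and 506), the second Creb5 start site has a peak of replicate 2 alone (44) and the first has none.

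Motif matches were looked for in the windows of all 3 start sites. The Arid5b window held 1 TAAT core, at position -161, which overlaps an AATATT word at -164, and both lie under the peaks of both replicates. The first Creb5 window held a full CRE at position -45, which overlaps an E-box (CANNTG), and TAAT cores at -23 and 3, along with 5 GC boxes (GGGCGG). The second Creb5 window held 1 TAAT core at position -85, inside the replicate 2 peak. It also held an E-box at -60 and an AP-1 word (TGANTCA) at -45. The longer LIM-homeodomain words TAATTA or TAATTG or CTAATG, and the words AATACT and CCAAT, were in none of the 3. The Arid5b peaks run on upstream of their window, to positions -520 and -553, and that part was not searched. No sequence outside the promoter windows was available here, so the other shared regions were not searched either.

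For comparison, a TAAT core stood in 46.5% of the promoter windows under a shared region and in 58.0% of all 32851. A full CRE stood in 2.93% of windows under a shared region and in 1.79% of all, and AATATT in 3.68% and 6.81%. An AP-1 word stood in 4.88% and 7.81%, an E-box in 60.1% and 72.3%, and a GC box in 58.8% and 35.7%. The G and C content was 64.7% in the first Creb5 window, 50% in the second and 43.3% in the Arid5b window, against a median of 52.7% over all windows. A match shows only that the letters are there.

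Inside Creb5 (chr6:53287226-53700364, 413 kb) lay 7 shared regions, 9 peaks of replicate 1 and 10 of replicate 2. The strongest region of the locus was at chr6:53431599-53432126, 145 kb after the first start site, with scores of 282 in replicate 1 and 304 in replicate 2. The next, at chr6:53469285-53469566, had 232 and 253. The last of this group, at chr6:53461977-53462224 had 156 and 166. These 3 regions, spread over 37.5 kb, were the strongest of all 25 by the lower score, and the replicates gave them much the same values.

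The other 4 regions in Creb5 had scores under 100 in replicate 1. The region at chr6:53398864-53399251 had 96 in replicate 1 and 164 in replicate 2, and the one nearest the first start site (chr6:53315267-53315399) had 52 and 82. Close to the far end of the gene, chr6:53676847-53677058 had 42 and 166. Its neighbour at chr6:53688885-53689141 had 62 and 108. All 7 regions in Creb5 had the higher score in replicate 2, against 58.8% of the regions outside both windows. No shared region lay in the 208 kb between those at 182 kb and 390 kb after the first start site, a stretch that takes in the second start site.

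Upstream of Creb5 lay 5 regions, and in neither replicate did their scores fall steadily with distance from the gene. The one at chr6:53164039-53164531, 123 kb away, had 166 in replicate 1 and 131 in replicate 2. The nearest, 74.8 kb away (chr6:53212346-53212580), had 196 and 106. Between them, 117 kb away, chr6:53169865-53170229 had 76 and 37. In 4 of these 5 regions replicate 1 had the higher score, the reverse of the order inside the gene. Both counts are small and the difference was not tested. The 2 farthest lay inside Jazf1, a zinc finger gene, with scores of 121 and 109 (chr6:53020382-53020725) and of 90 and 99 (chr6:52861947-52862243).

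Downstream of Creb5 lay 13 regions, of which 7 fell inside Cpvl, a serine carboxypeptidase gene of 106 kb that begins 173 kb past Creb5. Cpvl therefore held as many shared regions as Creb5 itself in a far shorter span, 6.63 against 1.69 per 100 kb. The highest lower score in Cpvl was at chr6:53881730-53881851, with 104 in replicate 1 and 131 in replicate 2. The highest single score was at chr6:53913256-53913447, with 96 and 274, beside chr6:53912252-53912449 with 75 and 144. The other 4 had at least 1 score of 33 or lower, down to 21 in replicate 1 where replicate 2 had 144 (chr6:53898027-53898293). Cpvl was thus dense in regions that were mostly weak in one of the replicates.

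The remaining 6 downstream regions lay between genes. The strongest 2 were a pair 61.9 and 60.4 kb from Creb5: chr6:53762155-53762430 had 151 in replicate 1 and 127 in replicate 2, and chr6:53760674-53760858 had 107 and 140. Another pair, 35.5 and 38.2 kb away, had 69 and 98 (chr6:53735740-53735925), and 138 and 53 (chr6:53738454-53738614). The last 2 had scores between 46 and 74. Neither Tril, a gene of Toll-like receptor signalling, nor the annotated span of Chn2, a Rac-regulating chimaerin gene, held a shared region inside the window.

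**Figure D2:**
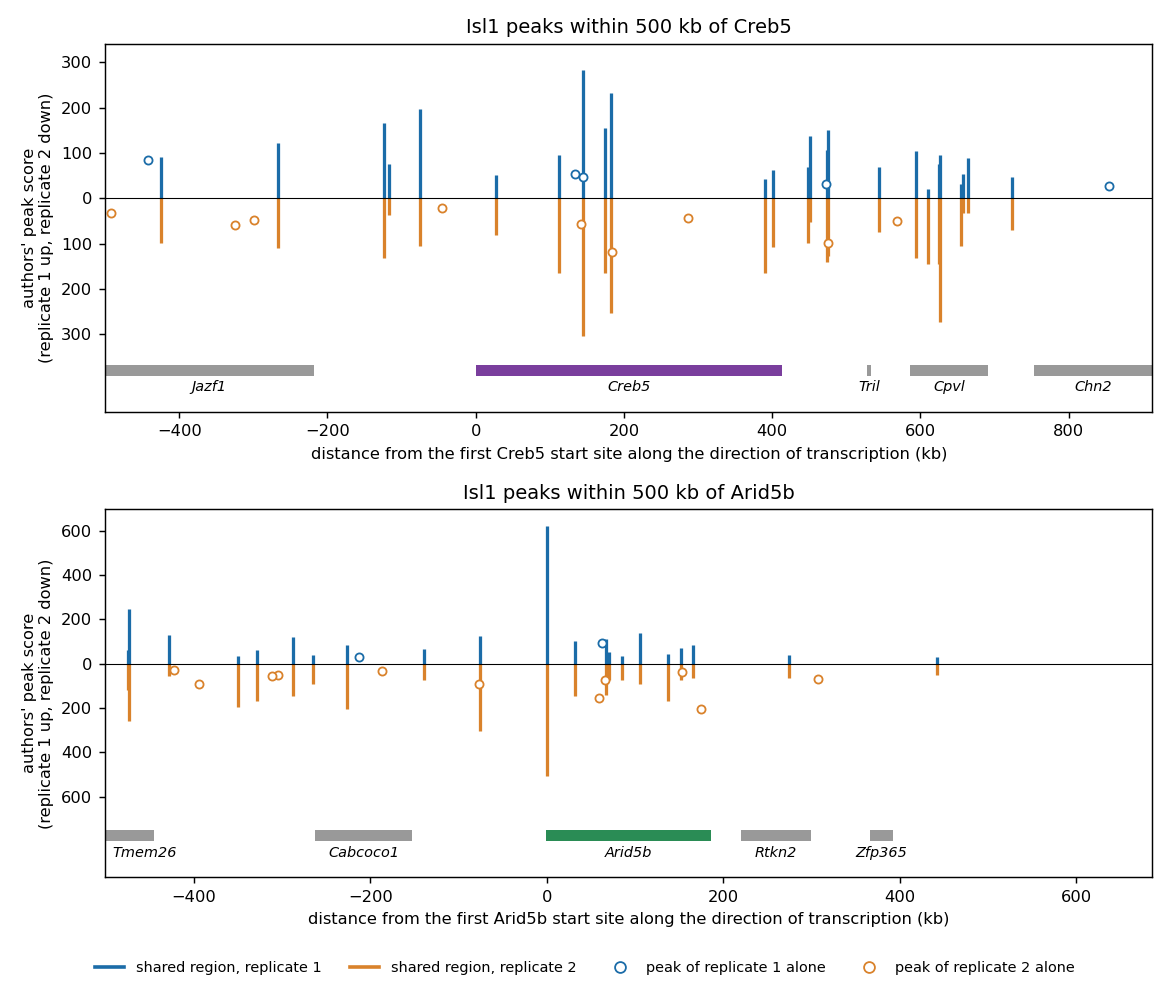
Every Isl1 peak in the Creb5 (top) and Arid5b (bottom) windows, by distance in kb from the gene's first start site along the direction of transcription, with genes as bars underneath. Lines are shared regions with the authors' score in replicate 1 (up) and replicate 2 (down), and open circles are peaks of 1 replicate alone. The Arid5b start site carries the tallest lines (621 and 506), and the Creb5 lines are tallest inside the gene (282 and 304).

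Inside Arid5b (chr10:68092523-68279355, 187 kb) lay 9 shared regions, 10 peaks of replicate 1 and 13 of replicate 2. Apart from the start site, 2 regions had scores of at least 100 in both replicates. The region at chr10:68212007-68212213, 66.6 kb after the start site, had 113 in replicate 1 and 140 in replicate 2. The region at chr10:68246805-68247029, 31.8 kb after it, had 102 and 145. The start site thus stood well above every other region of the gene.

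The other 6 regions in Arid5b had no score above 166. By the lower score, the first of these was chr10:68173305-68173534, with 138 in replicate 1 and 90 in replicate 2. Toward the end of the gene, chr10:68126151-68126554 had 69 and 72, and chr10:68113082-68113232 had 85 and 66. The replicates differed most at chr10:68141079-68141287, with 46 and 166. The remaining 2 had 54 and 74 (chr10:68208304-68208569) and 36 and 75 (chr10:68193192-68193393). Successive regions in the gene were a median of 17.5 kb apart, and in Creb5 31.5 kb.

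Outside Arid5b the regions lay mostly to one side, with 10 upstream and 2 downstream. The strongest was 473 kb upstream, inside Tmem26, a membrane protein gene, at chr10:68752211-68752555, with 249 in replicate 1 and 260 in replicate 2. A second region lay 0.566 kb from it (chr10:68752901-68753086) and had 61 and 118. The nearest upstream region, 75.5 kb from the gene (chr10:68354671-68354986), had 124 and 305. In 9 of the 10 upstream regions replicate 2 had the higher score, against 58.8% of the regions outside both windows.

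The others outside Arid5b were weaker in at least 1 replicate. The region at chr10:68566313-68566594 had 120 in replicate 1 and 144 in replicate 2. Inside Cabcoco1, a coiled-coil gene, chr10:68504731-68504918 had 85 and 206, and 1.37 kb from the start site of that gene chr10:68543133-68543389 had 39 and 90. Farther out, chr10:68607038-68607380 had 60 and 166. The region at chr10:68628708-68628985 had 36 and 197, the largest ratio between the replicates in this window. The remaining upstream regions had 66 and 75 (chr10:68417720-68417883), and 128 and 54 (chr10:68707073-68707360). On the downstream side, the region in Rtkn2 had 41 and 64, and the one 256 kb away had 31 and 51, so both were low in both replicates. Zfp365 held none.

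Peaks found in one replicate alone added to both loci. Creb5 had 5 peaks of replicate 1 alone, with scores of 26 to 85, and 9 of replicate 2 alone, with scores of 22 to 118. The highest of these was inside Creb5, 1.82 kb past the second-strongest region (chr6:53471193-53471319). Next in replicate 2 came 99 at chr6:53762573-53762802, beside the pair of regions 60.4 and 61.9 kb past Creb5, and 60 inside Jazf1 (chr6:52962013-52962143). The highest of replicate 1 alone were 85 inside Jazf1 (chr6:52845836-52845953), and 53 and 46 inside Creb5 (chr6:53421545-53421702 and chr6:53431397-53431506), of which the last adjoins the strongest region of the locus.

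Arid5b had 2 peaks of replicate 1 alone, with scores of 93 inside the gene (chr10:68216243-68216372) and 32 inside Cabcoco1 (chr10:68491754-68491919), and 11 of replicate 2 alone, with scores of 27 to 206. The highest of replicate 2 alone lay inside the gene, at chr10:68103444-68103737 with 206 and at chr10:68219287-68219633 with 156. The next, of 91 (chr10:68355759-68356087), was 76.6 kb upstream, close to the region with scores of 124 and 305. With replicate 2 alone the Arid5b window would hold 32 sites in place of 21 shared ones, and with replicate 1 alone 23.

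In the Creb5 window 83.3% of replicate 1 peaks were shared (25 of 30, Wilson 95% interval 66.4 to 92.7%), and in the Arid5b window 91.3% (21 of 23, 73.2 to 97.6%), against 78.4% in the rest of that list. Of replicate 2 peaks, 74.3% were shared in the Creb5 window (26 of 35, 57.9 to 85.8%) and 65.6% in the Arid5b window (21 of 32, 48.3 to 79.6%), against 68.2% in the rest of the list. Each interval covers counting error alone and treats neighbouring peaks as independent. The loci were chosen by their peaks, so the shares are descriptions, and a difference from the rest was not tested.

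Both loci were crowded with regions of modest score. The median lower score was 75 in the Creb5 window and 66 in the Arid5b window, against 91 for the 6788 regions elsewhere. Both scores reached 100 in 9 of 25 regions at Creb5 (36.0%) and in 6 of 21 at Arid5b (28.6%), against 45.6% elsewhere. Median widths were 248 and 233 bp, in the windows, against 251 bp elsewhere. These measures come from the peaks that chose the loci and were not tested.

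The agreement of the replicates on the order of the regions depended on which regions were taken. The Spearman correlation of the scores was 0.37 over the 25 regions of Creb5 and 0.39 over the 21 of Arid5b, against 0.72 over the other regions, whose scores span a wider range (up to 1638). With windows of 100 or 250 kb the Arid5b value was 0.58, and over its 6 regions with both scores of at least 100 it was 0.77. The Creb5 value was 0.48 with scores of at least 50 and 0.53 with a window of 1 Mb. Under the other settings tried the values stayed low, at 0.34 to 0.43 for Creb5 and 0.35 to 0.43 for Arid5b. Within the Creb5 window it was 0.72 over the 7 regions inside the gene, 0.70 over the 5 upstream and 0.10 over the 13 downstream. For Arid5b it was 0.37 over the 9 inside and 0.20 over the 10 upstream. These values rest on few regions and carry no interval, and differences between them were not tested. Replicate 2 had the higher score in 17 of 25 regions at Creb5 (68.0%) and in 17 of 21 at Arid5b (81.0%), against 58.8% elsewhere. The read depth of the libraries is unknown, and its part in this was not tested.

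**Figure D3:**
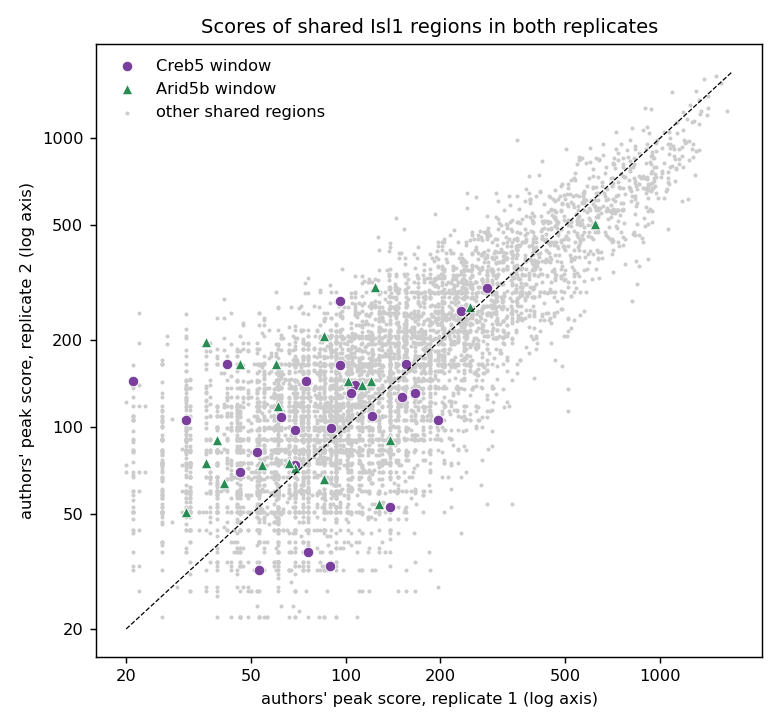
Authors' peak score of each shared region in replicate 1 and replicate 2 (log axes, dashed line of equal scores) for the Creb5 window, the Arid5b window and the other 6788 regions. Most points of both loci lie above the line and in the lower part of the cloud, and 1 Arid5b point, the start site, has scores of 621 and 506.

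The loci were set beside every protein-coding gene, as a description of what chose them. The median gene had 2 shared regions in its window and 78.0% of genes had at least 1. Only 7 genes had 25 or more, among them Creb5, Dnm3, Vps13b and Kat6b, and 18 had 21 or more. Windows overlap, so neighbours share regions: Cabcoco1, beside Arid5b, had 24 and Cpvl, beside Creb5, had 21. Per Mb of window both loci had 17.7 regions, against a median of 1.97 and a highest value of 26.4. By this measure 30 genes had at least the Creb5 value and 29 at least the Arid5b value, each gene itself included.

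The count inside the gene separated the loci more. Arid5b had 4.82 shared regions per 100 kb of gene and Creb5 1.69, and among the 2429 genes of at least 100 kb the median was 0. Of those genes, Cpvl (6.63) and Arid5b were the 2 densest, followed by Kifap3 (4.52). Creb5 was equalled or passed by 86 of them, itself included. The window of 500 kb cut Arid5b closely: the last region inside lay 474 kb away with scores of 61 and 118, and the first outside lay 502 kb away, also in Tmem26, with 79 and 137. At Creb5 the outermost regions inside were 425 kb upstream (90 and 99) and 310 kb downstream (46 and 70), and the next outside were 685 kb (44 and 67) and 712 kb away (61 and 83).

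**Figure D4:**
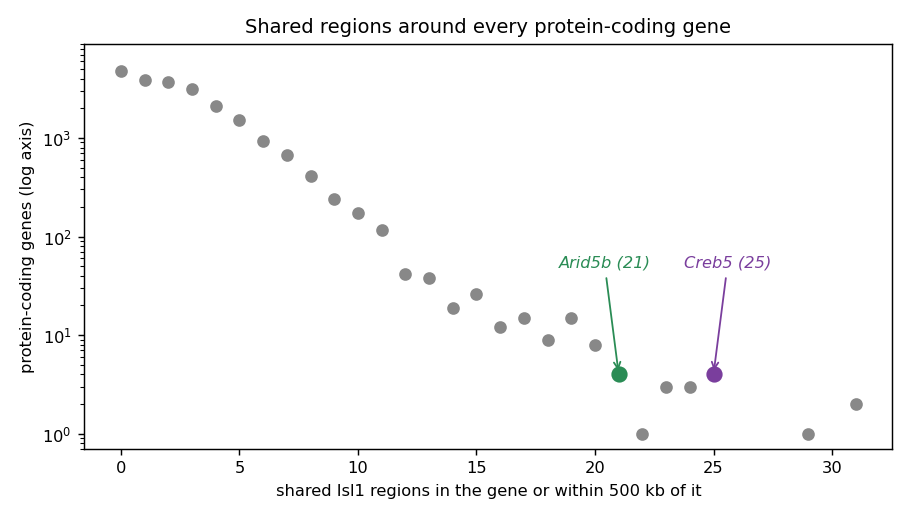
Number of protein-coding genes (log axis) by the number of shared Isl1 regions in the gene or within 500 kb of it. Creb5 with 25 and Arid5b with 21 lie in the far tail, where the median gene has 2.

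The genes with the most similar counts, by the summed difference of regions inside and outside the gene, were sought among 21861 genes with separate windows. For Creb5 (7 inside, 18 outside) they were Col8a1, a collagen gene (5 and 17), Rgs22, a regulator of G protein signalling (5 and 15), and Cmss1 (7 and 12). For Arid5b (9 inside, 12 outside) they were Kifap3, a kinesin-associated protein gene (7 and 12), Cmss1 and Filip1l (7 and 11). Col8a1, Cmss1 and Filip1l are neighbours on chromosome 16 and are largely one cluster of regions: Cmss1 and Filip1l share 18, which is 94.7% of the Cmss1 regions and 100% of those of Filip1l. The median lower score was 79 at Cmss1, 81 at Kifap3, 86.5 at Col8a1, 88 at Filip1l and 91.5 at Rgs22. At Creb5 it was 75 and at Arid5b 66. The highest lower score was 701 at Col8a1, Cmss1 and Filip1l, 664 at Rgs22 and 601 at Kifap3. Creb5 had 282 and Arid5b 506.

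Of the other 15 genes of the CREB/ATF family, 2 had a shared region inside (13.3%, against 8.32% of all protein-coding genes) and 11 had one in the window (73.3%, against 78.0%). Atf7, of the same subfamily as Creb5, held 3, of which the strongest had scores of 316 in replicate 1 and 204 in replicate 2 (chr15:102625198-102625494). Atf6, a sensor of stress in the endoplasmic reticulum, held 2, with up to 312 and 415 (chr1:170867737-170868011). The third of the subfamily, Atf2, held none and had 10 in its window. Creb1, the founding member, had none in its window. The shares of this family do not allow for gene length and were not tested.

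None of 7 AP-1 genes, which encode dimer partners of the family, held a shared region (against 8.32% of all genes), and 6 had one in the window (85.7%, against 78.0%), with 11 at Junb and 1 at Jun. Prg4 had none inside and 6 in its window. Among the 6 cartilage genes, Sox5 (scores 152 and 154) and Sox6 (39 and 34) held 1 each, and Sox9, Acan and Col2a1 held none. These are 2 of 6 genes (33.3%, against 8.32% of all genes), and 5 of 6 had a region in the window (83.3%, against 78.0%). The lists are short, the shares do not allow for gene length and were not tested.

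Of the other 14 genes with an ARID domain, 3 had a shared region inside (21.4%, against 8.32% of all genes) and 13 had one in the window (92.9%, against 78.0%). Each of these 3 held 1 region. The shares do not allow for gene length and were not tested, and Arid1b (353 kb) and Jarid2 (191 kb) are long genes. Arid1a, a subunit of the BAF chromatin remodelling complex, had the strongest of any family member, with scores of 1248 in replicate 1 and 1304 in replicate 2 (chr4:133754273-133754616). Jarid2, a Polycomb cofactor, had 288 and 462, and Arid1b, the paralogue of Arid1a, had 161 and 106. Arid5a, the closest relative of Arid5b, held none and had 7 in its window. Phf2, the partner demethylase of ARID5B, held none and had 3, while its relatives Phf8 and Kdm7a had 0 in their windows.

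**Figure D5:**
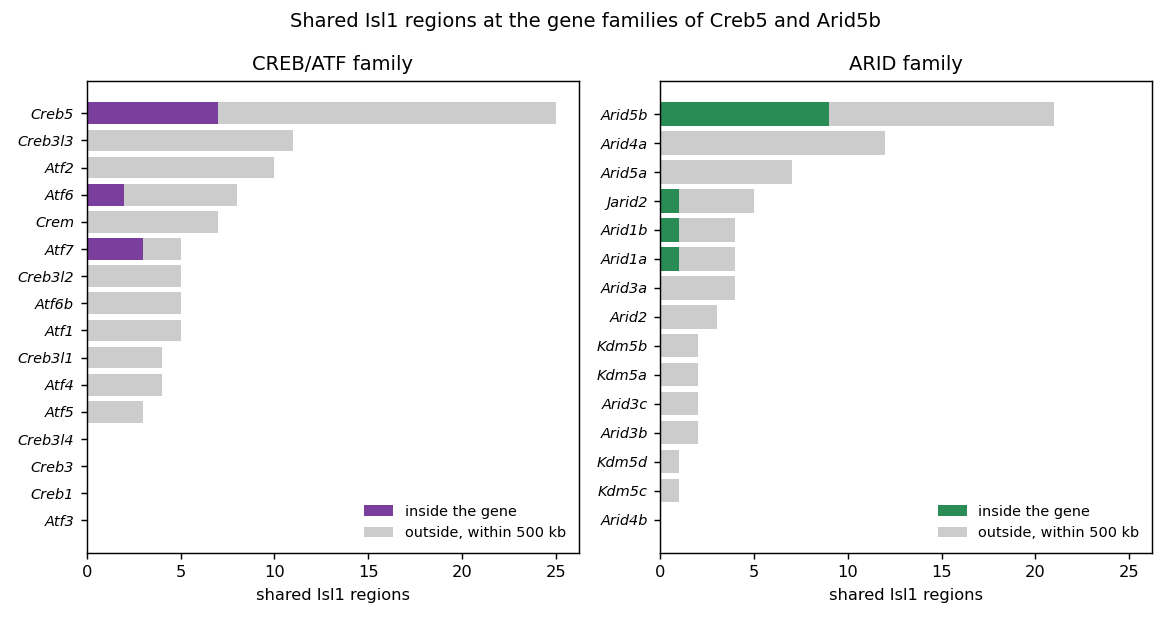
Shared Isl1 regions inside each gene (coloured) and outside it within 500 kb (grey) for the CREB/ATF family (left) and the ARID family (right). Creb5 (7 and 18) and Arid5b (9 and 12) head their families, and the next highest windows hold 11 (Creb3l3) and 12 (Arid4a).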

How the data were processed

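Peak lists of 2 Isl1 ChIP-seq samples were used. Per the submitters' processing notes, which give neither order nor settings, the tools were Trimmomatic 0.35, Bowtie2 2.2.6, MACS2 2.1.0.20150731 and bedtools, on build mm10. The score of each peak is the authors' deposited whole number (lowest 20 in each list). Its formula, the calling threshold and the use of the input were not given in the sources used here. Scores served to describe and rank peaks, and nothing states that they are comparable between libraries. Read depth is unknown, and a site below the threshold is not listed, so no peak does not mean no binding. Sequencing gave single-end reads of 75 bp from chromatin sheared to 150 to 400 bp, per the labels' protocols.

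A shared region joins overlapping peaks of both replicates, with the higher score of each list where it holds several. Its position is the midpoint of the longest overlap. The lower score is the lower of the 2 replicates' scores. Gene spans and start sites came from RefSeq tables (GRCm38.p6), and exons and introns were not used here. Both genes, all members of the family lists and all motifs were matched, on chromosomes 1 to 19, X and Y. Promoter windows of all genes in the table were searched on both strands. The rule for naming took every region inside the genes, the 10 highest outside each, the 3 highest peaks of each list alone, all genes in the windows, and the 3 most similar genes. Shares carry Wilson 95% intervals. No test was run, since the values chose the loci. The members and lists were chosen with earlier results of these data known. Counting was tested on simulated peaks. Python 3.11.15, numpy 2.4.6 and scipy 1.17.1 were used.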

Additional observations from a re-analysis of the deposited data

How the results depend on the processing

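Of 66 values under alternatives, 51 stayed within the limits set (1.5-fold for counts, the Wilson interval for shares, 0.1 for correlations) and 15 moved. Only the correlations could change direction, since counts and shares have none, and 0 did. With peaks of score 100 or more, the Creb5 window held 9 shared regions, with 3 inside the gene, the Arid5b window held 6, with 3 inside, the shares of replicate 2 peaks that were shared fell to 52.9% and 46.2%, and the Arid5b correlation was 0.77. With a score of at least 50 the Creb5 correlation was 0.48. A window of 100 kb held 12 regions at Creb5 and 11 at Arid5b (correlation 0.58), one of 250 kb held 13 at Arid5b (0.58), and one of 1 Mb gave a Creb5 correlation of 0.53. Single replicates gave 30 to 35 peaks in the Creb5 window and 9 to 10 inside the gene, and 23 to 32 in the Arid5b window and 10 to 13 inside. Fewer peaks or a shorter window give fewer regions by construction. The score limit was applied to both lists before matching. A replicate 2 peak whose replicate 1 partner scored under 100 thus counted as not shared. Examples are the regions with 96 in replicate 1 and 274 in replicate 2 (Creb5 window) and with 36 and 197 (Arid5b window). The cause of the other shifts was not tested. Reciprocal overlap of at least 50% left 23 and 19 regions. No paired analysis was possible because peak lists of 1 group alone were used here, so there is nothing to pair by replicate number.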

Other observations

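Close pairs of regions occurred at both loci. Of the 44 gaps between successive regions in the windows, 6 (13.6%) were under 5 kb, against 8.07% of 6767 gaps elsewhere, with 4 at Creb5 and 2 at Arid5b. Scores were alike in some pairs, as in the one past Creb5 with 107 and 140 beside 151 and 127, and not in others, as at Tmem26, where 249 and 260 stood beside 61 and 118. The median gap was 32.1 kb in the windows and 143 kb elsewhere. Both loci were chosen because many peaks lay there, so shorter gaps follow from the choice. These shares were not tested.

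Some regions outside Creb5 and Arid5b lay near start sites of genes that were not among the protein-coding genes examined. The strongest region in Cpvl by the lower score lay 0.761 kb from a start of Gm33716, and the region at chr10:68417720-68417883 lay 2.12 kb from a start of Gm40683. The densest 100 kb of each locus held 7 regions, at Cpvl and inside Arid5b, where the densest of the series held 10.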
